A study of Mus musculus with 8 samples.

Results

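The genes described here are 8 cytokine genes through which endothelial cells signal to immune cells: Csf1, Il33, Il6, Il6st, Il15, Il7, Kitl and Tnfsf10. They were taken by symbol from the gene list of the second sequencing run and matched by identifier to the first run, which gave 8 of the 30406 genes that both runs share. Il6st encodes a receptor subunit and the other members encode ligands. The series asks how an obesogenic diet affects endothelial cells. The data are single-cell RNA-seq libraries of YFP-labelled cells sorted from the mesentery and from epididymal adipose tissue of male ROSA26-eYFP+/+ Cdh5-CreERT2+ mice. In these mice Cre is driven by the promoter of the endothelial cadherin gene Cdh5 and switches on YFP after tamoxifen, which all animals received in the diet for 2 weeks from 6 weeks of age. From 8 weeks of age the mice ate normal chow with 5.8% fat or a high fat diet with 60% fat for 12 to 13 weeks. The 4 groups are therefore mesentery on chow, mesentery on high fat diet, epididymal fat on chow and epididymal fat on high fat diet. Each group has 2 libraries, 1 from each of 2 repeats of the experiment called run A and run B, and each library pooled cells of 6 mice, so n = 2 pools per group and the spread between single animals was not measured.

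These genes serve distinct immune cells. Csf1 keeps macrophages alive through the receptor Csf1r, Kitl (stem cell factor) acts on mast cells and blood progenitors through Kit, and Il7 and Il15 maintain lymphocytes through receptors that share the subunit Il2rg. Il33 is an alarmin stored in the nucleus and sensed by innate lymphoid cells, regulatory T cells and mast cells through Il1rl1, whereas Tnfsf10 (TRAIL) binds death receptors. Il6 signals through Il6ra paired with Il6st (gp130), which also transduces leukaemia inhibitory factor and oncostatin M together with Lifr or Osmr and activates Jak kinases and Stat3.

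The promoters of Csf1 and Il33, which had diet or tissue calls over all endothelial cells, and of Il6, which separated the runs, are shown first. The gene Csf1 lies at chr3:107741048-107760469 on the minus strand of GRCm38, Il33 at chr19:29925114-29960718 on the plus strand and Il6 at chr5:30013114-30019981 on the plus strand. Each sequence is the 250 bases just before a RefSeq transcription start (GRCm38.p6), 5′ to 3′ on the gene's strand, outside the transcribed region, with motif matches in capitals. RefSeq lists 2 starts for Il33 and the first is printed.
Csf1, chr3:107760470-107760719, minus strand: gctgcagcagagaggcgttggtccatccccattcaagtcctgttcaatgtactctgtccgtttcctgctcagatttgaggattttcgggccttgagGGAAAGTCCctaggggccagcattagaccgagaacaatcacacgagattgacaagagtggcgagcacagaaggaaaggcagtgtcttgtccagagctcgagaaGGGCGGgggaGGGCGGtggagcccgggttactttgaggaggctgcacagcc
Il33, chr19:29924863-29925112, plus strand: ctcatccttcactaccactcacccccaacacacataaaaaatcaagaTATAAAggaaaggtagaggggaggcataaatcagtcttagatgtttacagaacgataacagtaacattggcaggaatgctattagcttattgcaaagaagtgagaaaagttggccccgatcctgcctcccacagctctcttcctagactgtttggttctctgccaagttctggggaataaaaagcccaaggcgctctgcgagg
Il6, chr5:30012864-30013113, plus strand: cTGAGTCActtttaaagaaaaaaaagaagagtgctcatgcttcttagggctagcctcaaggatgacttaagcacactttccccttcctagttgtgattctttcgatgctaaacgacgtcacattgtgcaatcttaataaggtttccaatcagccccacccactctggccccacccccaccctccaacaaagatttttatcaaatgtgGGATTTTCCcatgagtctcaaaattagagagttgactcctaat

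Both strands were searched for 6 motifs, and the share of all 32851 promoter windows of this length that hold each was counted. The motifs were the TATA box TATAAA (12.4% of windows), the GC box GGGCGG (32.7%), the interferon-stimulated element GAAANNGAA (7.13%), the STAT element TTCNNNGAA (7.02%), the AP-1 site TGANTCA (6.75%) and the NF-kappaB site GGNNTTTCC (4.93%). The Csf1 window holds a match to the NF-kappaB motif 154 to 146 bases before the start, read on the opposite strand, and GC boxes at 51 to 46 and 41 to 36 bases. The Il6 window holds an NF-kappaB match 43 to 35 bases before the start and an AP-1 match at 249 to 243 bases. The printed Il33 window holds only a TATA box, 203 to 198 bases before the start, and the window of the second start, chr19:29945540-29945789, only a TATA box 29 to 24 bases before it. None of these matches overlaps another. Promoters were listed for 6 of the 8 members; Il6st held 1 GC box, Kitl 3 GC boxes, of which 2 overlap each other, and a TATA box, and Tnfsf10 none of the motifs. These matches are descriptions of the letters, and binding was not measured. The other members lie at chr13:112464070-112510086 (Il6st, plus), chr8:82331632-82403222 (Il15, minus), chr3:7569994-7613760 (Il7, minus), chr10:100015630-100100416 (Kitl, plus) and chr3:27317028-27342427 (Tnfsf10, plus).

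The 8 libraries held 27944 barcodes. Library totals were 3461360 to 6714473 unique molecular identifiers (UMIs, each standing for 1 captured transcript) in run A and 18829960 to 36779289 in run B, so run B carries most of the counts. Run A also lost 22.8% to 30.8% of its barcodes to the limit on mitochondrial counts against 5.42% to 8.96% in run B, and library pairs shared at most 0.313% of the barcodes of the smaller library. After filtering, 23113 cells fell into 33 clusters, which were named from marker lists and not from an annotation by the authors, and the 8 members and their related genes were kept out of the clustering. The sort still held macrophage-like, T cell-like, B cell-like, fibroblast-like, mesothelial-like and adipocyte-like clusters. The endothelial clusters held 15212 cells, among them 1766 arterial-like, 4209 capillary-like, 3226 venous-like and 2695 lymphatic-like cells, with the remainder in unnamed endothelial clusters. Counts were summed per library and population, and levels are CPM, the UMIs of a gene relative to the total of the sum, with SD over libraries. They are TMM-scaled for the named endothelial classes and for all endothelial cells. Levels of single clusters, of other cell classes and of all endothelial cells without some clusters are not TMM-scaled. In such sums, fewer cells of a type and less RNA per cell cannot be told apart.

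Each member had its own distribution over the endothelial classes, and nearly all differences between classes passed the test. Of 7 members that passed the filter on low counts, 27 of 28 comparisons of 1 class with the mean of the other classes were called (edgeR quasi-likelihood test with the library as a block, Benjamini-Hochberg adjusted p under 0.05). The members called were 6 in arterial-like, 7 in capillary-like, 7 in venous-like and 7 in lymphatic-like cells. These counts stand against a wide background, since 32.8%, 34.6%, 30.2% and 46.4% of all 9090 genes tested were called in the same comparisons. The exception was Tnfsf10 in arterial-like cells, with a log2 difference of -0.09 ± 0.13 (SE; adjusted p = 0.668). Il6 did not pass the filter in this comparison. DESeq2 called the same number, 27, limma-voom 24, and edgeR with doublets kept 26. Csf1 in arterial-like cells lost its call without run A of mesentery on chow or run B of epididymal fat on high fat diet (highest adjusted p = 0.0838).

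Among the named classes, Il7 was the member most restricted to lymphatic-like cells. Its level there ranged from 129 to 195 CPM with a median of 168 (166 ± 22.98, SD, n = 8), while in the arterial-like, capillary-like and venous-like sums it averaged 4.46 ± 2.89, 4.27 ± 6.02 and 1.78 ± 0.974 CPM (n = 8 each). All 8 lymphatic-like libraries lay above every library of the other classes, and the lymphatic-like log2 difference was 6.14 ± 0.14 (SE; edgeR adjusted p = 4.58e-24). The 3 lymphatic-like clusters differed among themselves, with 202 ± 46.0 CPM in cluster 5, 88.1 ± 25.2 in cluster 12 and 124 ± 86.6 in cluster 19. An Il7 UMI was found in 28.9% of lymphatic-like cells (exact 95% interval 27.2% to 30.7%) against 0.726% of T cell-like cells, which serve as the background, and after thinning every cell to 1000 UMIs in 14.7% against 0.260%. Median depths before thinning were 2025 UMIs in lymphatic-like and 3209 in T cell-like cells. These intervals cover counting error only.

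Kitl had the opposite distribution. It averaged 432 ± 133 CPM in capillary-like, 376 ± 172 in arterial-like and 253 ± 89.99 in venous-like cells, and 8.73 ± 5.44 in lymphatic-like cells (SD, n = 8 each). The 3 blood vascular classes overlapped each other, and every lymphatic-like library, at 1.58 to 15.5 CPM, lay below all of them. The lymphatic-like log2 difference was -5.35 ± 0.21 (SE; edgeR adjusted p = 9.09e-19), and the capillary-like one was 2.11 ± 0.14 (adjusted p = 1.31e-12). Kitl was highest in the arterial-like cluster 26, at 1269 CPM over 4 libraries. All 4 were of run B, in which arterial-like cells as a whole averaged 533 CPM, against 220 CPM in run A. Kit, its receptor, was itself higher in capillary-like cells (log2 2.90 ± 0.30, SE; edgeR adjusted p = 4.04e-09), at 46.2 ± 21.4 CPM (SD, n = 8).

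Il6st, the shared signal transducer, was highest in venous-like cells among the named classes. Its venous-like level ranged from 831 to 1466 CPM with a median of 1093 (1116 ± 209, SD, n = 8), above every library of the arterial-like (205 to 277 CPM), capillary-like (146 to 236 CPM) and lymphatic-like (218 to 524 CPM) classes. The venous-like log2 difference was 2.27 ± 0.10 (SE; edgeR adjusted p = 8.91e-17). A UMI of Il6st was present in 89.2% of venous-like cells and 18.4% of T cell-like cells, or 63.3% and 6.23% after thinning. T cells use Il6st themselves, so that share is not a pure background.

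Il33 was found in venous-like and lymphatic-like cells and was near 0 in the other classes. It ranged from 31.7 to 153 CPM in venous-like (73.5 ± 42.0, SD, n = 8) and from 14.4 to 201 CPM in lymphatic-like cells (56.3 ± 64.8), and these classes overlapped. Arterial-like cells held 9 Il33 UMIs in all 8 libraries and capillary-like cells 24. The log2 differences were 4.21 ± 0.26 (SE; edgeR adjusted p = 1.89e-13) for venous-like and 3.33 ± 0.29 (adjusted p = 8.11e-11) for lymphatic-like cells. Within the venous-like class the level differed by cluster, with 183 ± 37.9 CPM in cluster 8 (6 libraries; leading genes Selp, Adgrg6 and Vwf) and 40.6 ± 36.6 in cluster 7 (8 libraries; Ackr1).

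Csf1 was highest in venous-like cells among the named classes, at 39.3 to 129 CPM with a median of 72.8 (73.7 ± 29.4, SD, n = 8). It averaged 44.2 ± 20.1 CPM in arterial-like, 28.2 ± 12.6 in capillary-like and 14.0 ± 9.93 in lymphatic-like cells, and neighbouring classes in this order overlapped. The venous-like log2 difference was 1.70 ± 0.15 (SE; edgeR adjusted p = 2.41e-10) and the lymphatic-like one -1.52 ± 0.21 (adjusted p = 4.17e-07). The capillary-like difference of -0.72 ± 0.19 (adjusted p = 0.00330) became 0.16 in run A alone, where capillary-like cells held 17 Csf1 UMIs. Il33 in capillary-like cells likewise went from -3.80 to 0.38 in run A alone, on 4 UMIs.

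Il15 and Tnfsf10 were spread more evenly over blood vessels. Il15 averaged 27.5 ± 6.93 CPM in venous-like, 24.3 ± 10.2 in arterial-like, 22.3 ± 12.9 in capillary-like and 3.85 ± 2.05 in lymphatic-like cells (SD, n = 8 each). The blood vascular classes overlapped, and the lymphatic-like log2 difference was -2.69 ± 0.23 (SE; edgeR adjusted p = 5.63e-11). Tnfsf10 averaged 136 ± 41.9 CPM in capillary-like, 118 ± 32.1 in venous-like, 87.2 ± 39.0 in arterial-like and 59.7 ± 27.9 in lymphatic-like cells, and all 4 classes overlapped in range. Its lymphatic-like log2 difference was -0.93 ± 0.13 (adjusted p = 4.25e-07) and its venous-like one 0.56 ± 0.11 (adjusted p = 0.000263).

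**Figure D1:**
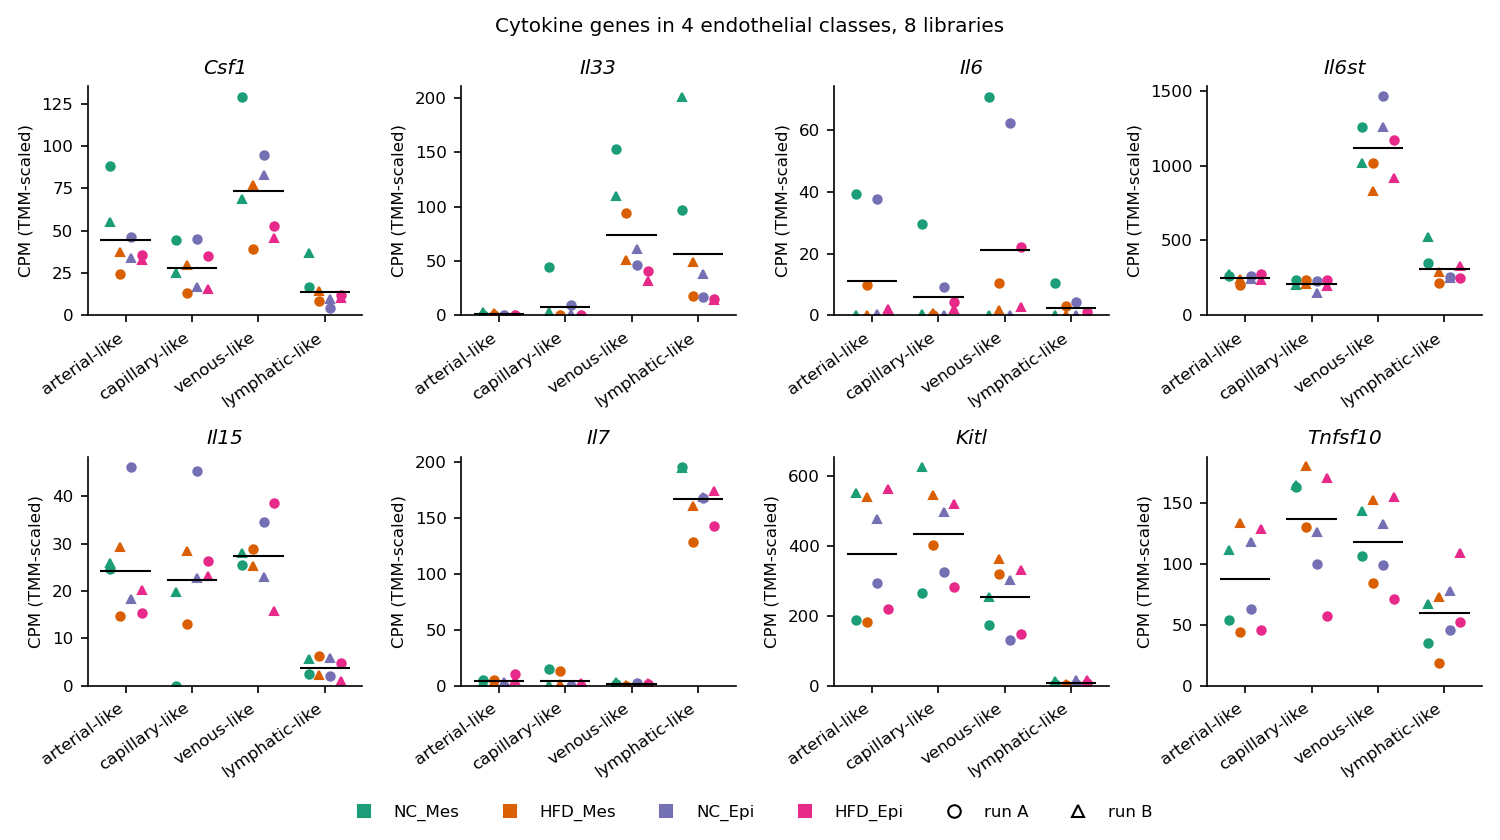
Levels of the 8 members (CPM, y axis, 1 panel per gene) in the 4 endothelial classes (x axis), with 1 point per library, colour for the group, circles for run A, triangles for run B and a line at the mean. Il7 stands out in lymphatic-like cells (166 CPM on average), Il6st in venous-like cells (1116 CPM) and Kitl is lowest in lymphatic-like cells (8.73 CPM).

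Some receptors were also read outside the endothelium. Csf1r averaged 751 ± 169 CPM in macrophage-like cells (SD, 4 libraries with at least 10 cells) and 506 ± 125 in the unnamed cluster 33, led by S100a9, S100a8 and Lst1 (2 libraries). T cell-like cells held Il7r at 335 ± 254 CPM, Il2rb at 199 ± 107, Il2rg at 296 ± 91.2 and Il1rl1 at 62.4 ± 50.8 (7 libraries each). Macrophage-like cells themselves held little Csf1 (1.87 ± 1.52 CPM) and more Kitl (85.4 ± 33.5 CPM). Fibroblast-like cells also held Il33, at 233 ± 132 CPM, and Csf1, at 110.2 ± 44.0 CPM (8 libraries).

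Of the 19 listed receptors and receptor subunits, 11 were tested across endothelial classes. The counts of this and the other lists stand against the 32.8% (arterial-like), 34.6% (capillary-like), 30.2% (venous-like) and 46.4% (lymphatic-like) of all genes called in either direction, and nothing particular to a list is read from them. In venous-like cells 5 were called higher and 0 lower, among them Lifr, which pairs with Il6st (log2 1.73 ± 0.14, SE; edgeR adjusted p = 5.52e-11). In lymphatic-like cells 3 were called higher and 3 lower: Il6ra (2.19 ± 0.18, adjusted p = 1.96e-11), the interleukin-11 receptor Il11ra1 (1.72 ± 0.16) and Il27ra (1.09 ± 0.24) were higher, and Lifr (-1.62 ± 0.17), Osmr (-0.28 ± 0.11) and Tnfrsf23 were lower. Capillary-like cells had 2 higher and 4 lower, and arterial-like cells 2 higher and 3 lower. Of the 12 genes of the gp130 signalling list, all tested, 7 were called higher and 1 lower in venous-like cells, with a median log2 difference of 0.57 against -0.0047 over all genes. The higher ones included Bcl3 (1.31 ± 0.14), the feedback inhibitor Socs3 (0.70 ± 0.19), Stat3 (0.64 ± 0.10) and Jak2 (0.63 ± 0.10). In lymphatic-like cells 2 were higher and 3 lower, with Cebpb at 2.08 ± 0.17 and Stat3 at -0.68 ± 0.11. The arterial-like class had 0 higher and 5 lower, and the capillary-like class 3 higher and 2 lower. Of the 25 related ligands 3 were tested, and Tslp was higher in lymphatic-like (0.86 ± 0.25, adjusted p = 0.00454) and lower in arterial-like cells (-1.08 ± 0.30, adjusted p = 0.00464). Il16, a chemoattractant of CD4+ cells, was higher in capillary-like (1.02 ± 0.22, adjusted p = 0.000326) and lymphatic-like (0.63 ± 0.25, adjusted p = 0.0379) and lower in arterial-like cells (-1.44 ± 0.30, adjusted p = 0.000264), while Flt3l was called in none of the classes. Of the 13 dissociation stress genes, a list of genes that tissue digestion is known to induce, 3 were called higher and 0 lower in arterial-like, 4 and 0 in capillary-like, 3 and 1 in venous-like, and 0 and 5 in lymphatic-like cells, and their part in the class differences was not tested.

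The highest levels of Csf1 and Il33 were not in a named class but in 2 unnamed endothelial clusters of the mesentery. Cluster 20, of 311 cells, was led by Marco, F8, Cd55, Tnc and Stab2, and cluster 23, of 255 cells, by Bmp2, Il4i1, Coch and Glycam1. Both carried the lymphatic regulator Prox1 (483 and 410 CPM) and the endothelial genes Pecam1 (558 and 382 CPM) and Cdh5 (624 and 452 CPM). Of the other endothelial markers, Ecscr was at 619 and 702, Egfl7 at 899 and 403 and Cldn5 at 1416 and 360 CPM. Eng was at 425 and 137 CPM and Tie1 at 228 and 118 CPM. Emcn (35.3 and 17.4 CPM), Robo4 (72.8 and 14.3 CPM), Tek (70.1 and 9.34 CPM) and Esam (50.6 and 16.2 CPM) were low. The mean log-normalised level per cell of the 11 endothelial markers, by which a cluster counted as endothelial from 0.75 upward, was 1.19 in cluster 20 and 0.759 in cluster 23, so cluster 23 passed narrowly. No class was given because none passed the naming rule in them. The rule asked for at least 3 markers raised 1.5-fold and a mean log2 difference of at least 0.5 over the marker list. Of the lymphatic markers, Ccl21a was at 35.3 and 88.4 CPM and Lyve1 at 2766 and 517 CPM, against 33594 and 5305 CPM in the lymphatic-like cluster 5 and 4504 and 143 CPM in the lymphatic-like cluster 12. Flt4 was at 276 and 85.9, Pdpn at 59.2 and 88.4, Mmrn1 at 326 and 50.4 and Reln at 46.6 and 10.6 CPM. In the same order these genes were at 1091, 386, 4546.5 and 1564 CPM in cluster 5 and 397, 110, 1715 and 262 CPM in cluster 12. Clusters 20 and 23 had at least 10 cells in 3 libraries, both mesentery libraries on chow and the run A library on high fat diet.

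In cluster 20, Csf1 stood at 742 and 783 CPM in mesentery on chow (runs A and B) and 302 CPM in mesentery on high fat diet (run A), and Il33 at 1224, 930 and 882 CPM in the same libraries. In cluster 23, Csf1 stood at 970, 911 and 537 CPM and Il33 at 547, 568 and 261 CPM. In each series the high fat library was the lowest, but it held only 12 cells of cluster 20 and 19 of cluster 23. The chow libraries (runs A and B) held 61 and 236 cells of cluster 20 and 47 and 189 of cluster 23. With 1 library on high fat diet the difference was not tested. A UMI of Csf1 was present in 88.4% of the cells of cluster 20 and 93.7% of those of cluster 23, against 2.91% of T cell-like cells. After thinning to 1000 UMIs these shares were 49.3%, 48.4% and 0.519%. Cluster 20 also held Il6st at 1660 ± 381 CPM (SD, 3 libraries) and Lifr at 918 ± 523 CPM, while Il6 was at 0 in both clusters. An Il7 UMI was present in 18.3% of the cells of cluster 20 and 12.2% of those of cluster 23, or 4.39% and 1.98% after thinning.

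**Figure D2:**
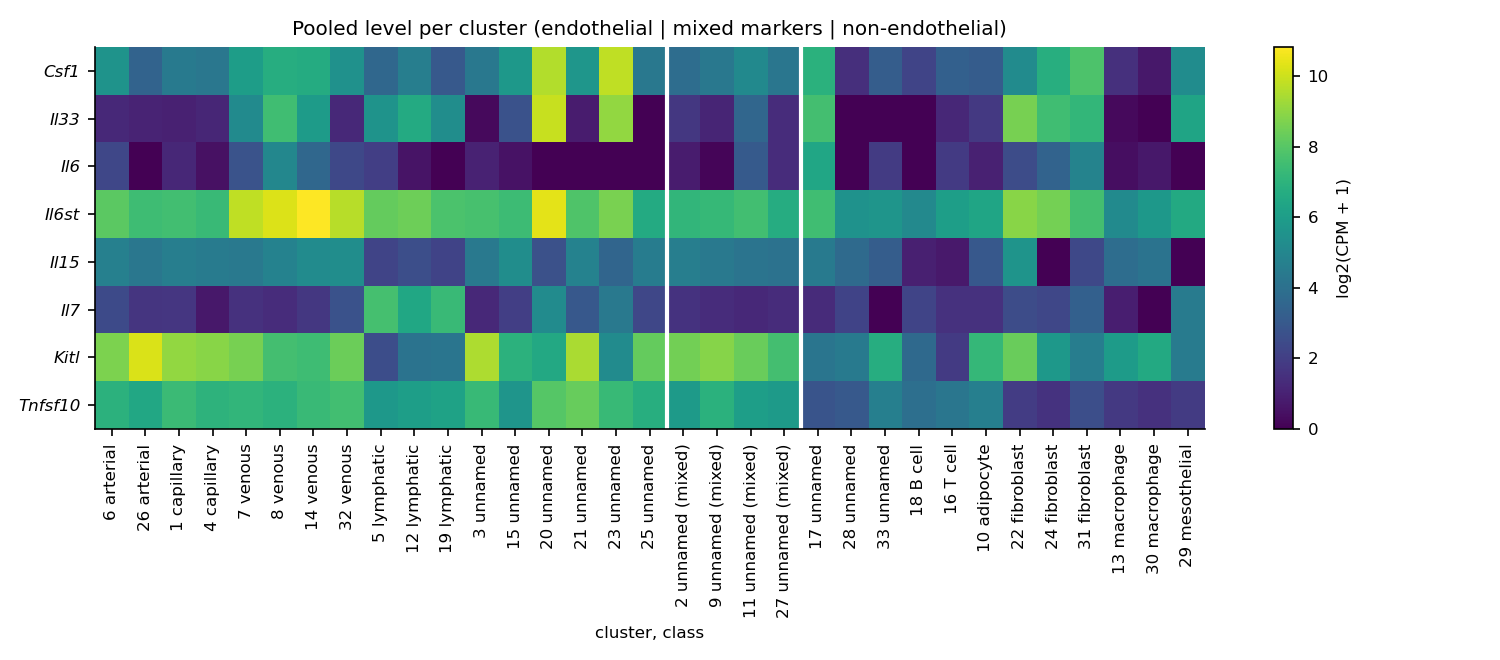
Heat map of log2(CPM + 1) for the 8 members (rows) in the 33 clusters (columns), with libraries pooled and clusters ordered as endothelial, mixed and non-endothelial. Clusters 20 and 23 carry the highest Csf1 and Il33 among the endothelial clusters.

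These clusters held a small share of the endothelial cells of mesentery on chow, but 49.4% to 79.5% of their Csf1 and Il33 UMIs. Their cells were also deeper, with a median of 1.76 (cluster 20) and 1.73 (cluster 23) times the UMIs of the median cell of their library. The share of cells does not take this into account. On chow they made up 108 of 1281 endothelial cells in run A (8.43%) and 425 of 3234 in run B (13.1%). On high fat diet they made up 31 of 680 (4.56%) and 2 of 2063 (0.0969%), and in the 4 libraries of epididymal fat 0 cells. The clusters were picked as unnamed endothelial clusters with almost no cells from epididymal fat, so their absence there is not a result. Their share of the endothelial Csf1 UMIs was 51.2% and 79.5% in the chow libraries, then 72.3% and 4.85% in the high fat ones. For Il33 the shares were 49.4%, 75.5%, 63.8% and 3.89%. In each run the high fat library had the lower share of cells, by very different amounts, and this difference was not tested.

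**Figure D3:**
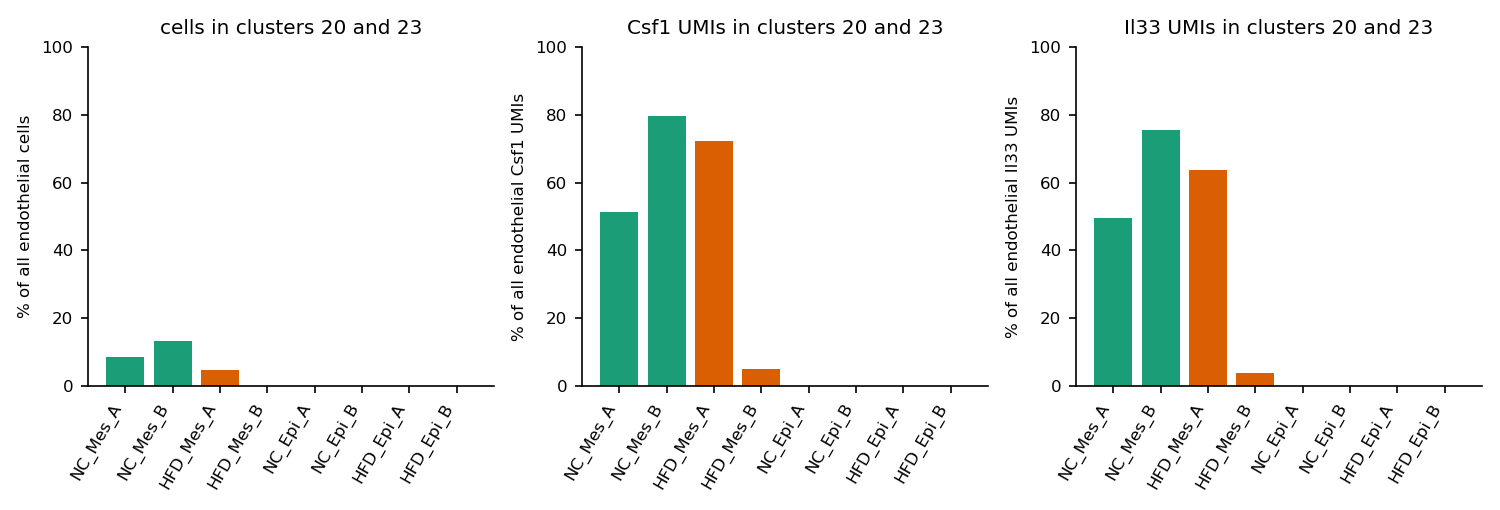
Bars show, for each of the 8 libraries, the percentage of all endothelial cells, of their Csf1 UMIs and of their Il33 UMIs that lay in clusters 20 and 23. In mesentery on chow the 2 clusters held 8.43% and 13.1% of the cells but 51.2% and 79.5% of the Csf1 UMIs. Bars of epididymal fat are at 0 because the clusters were picked for their near absence there.

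Diet and tissue were then compared over the 2 libraries of each group. In the fit without a block, edgeR called 0 of 148 tests of members in 21 comparisons, in which 0% of all genes were called each time. Of these tests 16 had an unadjusted p under 0.05. Over all genes, between 30 of 10043 (capillary-like, tissue on high fat diet) and 541 of 13089 (all endothelial cells, tissue on chow) did so per comparison. DESeq2 called 3 member tests and limma-voom 0. Libraries of the same run deviated together from their group means (correlations between groups 0.343 to 0.907). The labels also make the run a repeat of the whole experiment. The values with the run as a replicate block are therefore given beside the others. With the block edgeR called 8 member tests, DESeq2 9 and limma-voom 7. The 8 were Csf1 and Il33 in all endothelial cells, Il33 in venous-like cells, and Il33, Il6st and Csf1 in lymphatic-like cells.

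In all endothelial cells Csf1 was at 177 and 196 CPM in mesentery on chow (runs A and B), 52.3 and 38.4 in mesentery on high fat diet, 33.5 and 28.2 in epididymal fat on chow and 26.5 and 23.1 in epididymal fat on high fat diet. Both chow mesentery libraries lay above all others, and both high fat mesentery libraries lay above both of each epididymal group. High fat diet went with a 4.12-fold lower level in the mesentery, a log2 difference of -2.04 ± 0.25 (SE; edgeR adjusted p = 1.00, unadjusted p = 0.000141). With the replicate block it was -2.07 ± 0.19 (adjusted p = 0.0319), in a comparison in which 1 member and 0.168% of all genes were called. Mesentery exceeded epididymal fat on chow by 2.60 ± 0.26 on the log2 scale (adjusted p = 0.499; with the block 2.61 ± 0.19 and 0.00572, where 2 members and 0.741% of all genes were called). On high fat diet the tissue difference was 0.87 ± 0.25 (unadjusted p = 0.0114, adjusted p = 0.990; with the block adjusted p = 1.00). The interaction of diet and tissue was -1.73 ± 0.35 (unadjusted p = 0.00218, adjusted p = 1.00; with the block adjusted p = 0.586), so edgeR did not call it, while DESeq2 with the block did (adjusted p = 0.00332).

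Il33 in all endothelial cells was at 203 and 193 CPM in mesentery on chow, 65.6 and 14.6 in mesentery on high fat diet, 19.3 and 11.0 in epididymal fat on chow and 16.8 and 6.96 in epididymal fat on high fat diet. The chow mesentery libraries stood apart from the rest, while the 2 high fat mesentery libraries differed from each other and the run B one fell within the range of epididymal fat. The diet difference in the mesentery was -2.33 ± 0.77 on the log2 scale (edgeR unadjusted p = 0.0219; with the replicate block -2.69 ± 0.45, adjusted p = 0.0743). Mesentery exceeded epididymal fat on chow by 3.74 ± 0.82 (adjusted p = 0.810; with the block 3.82 ± 0.47, adjusted p = 0.0298).

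Clusters 20 and 23 moved with these values. Without them Csf1 in all endothelial cells was at 90.2 and 52.5 CPM in the chow mesentery, 15.8 and 37.3 in the high fat mesentery, and 32.2, 29.7, 25.9 and 23.1 in the 4 libraries of epididymal fat. The blocked diet difference was then -1.35 (edgeR adjusted p = 0.234) and the tissue difference on chow 1.25 (adjusted p = 0.251), so neither was called. As the clusters were picked as mesenteric and held high Csf1 and Il33, leaving them out had to lower the mesentery levels. Il33 without the clusters was at 107 and 62.1 CPM in mesentery on chow, 25.8 and 14.3 in the high fat mesentery and 6.97 to 18.6 in epididymal fat, and the blocked tissue difference on chow remained called at 2.50 (adjusted p = 0.00213). Its blocked diet difference in the mesentery, not called with the clusters, was called without them at -2.12 (adjusted p = 0.0101). The calls over all endothelial cells also depended on single libraries. The blocked diet call for Csf1 was lost in 5 of 8 fits that left out 1 library, namely without run B of mesentery on high fat diet or without any 1 epididymal library (highest adjusted p = 0.196). The tissue call for Csf1 was lost without either chow epididymal library (highest adjusted p = 0.284), and that for Il33 without any 1 of the 4 epididymal libraries (highest adjusted p = 0.486).

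**Figure D4:**
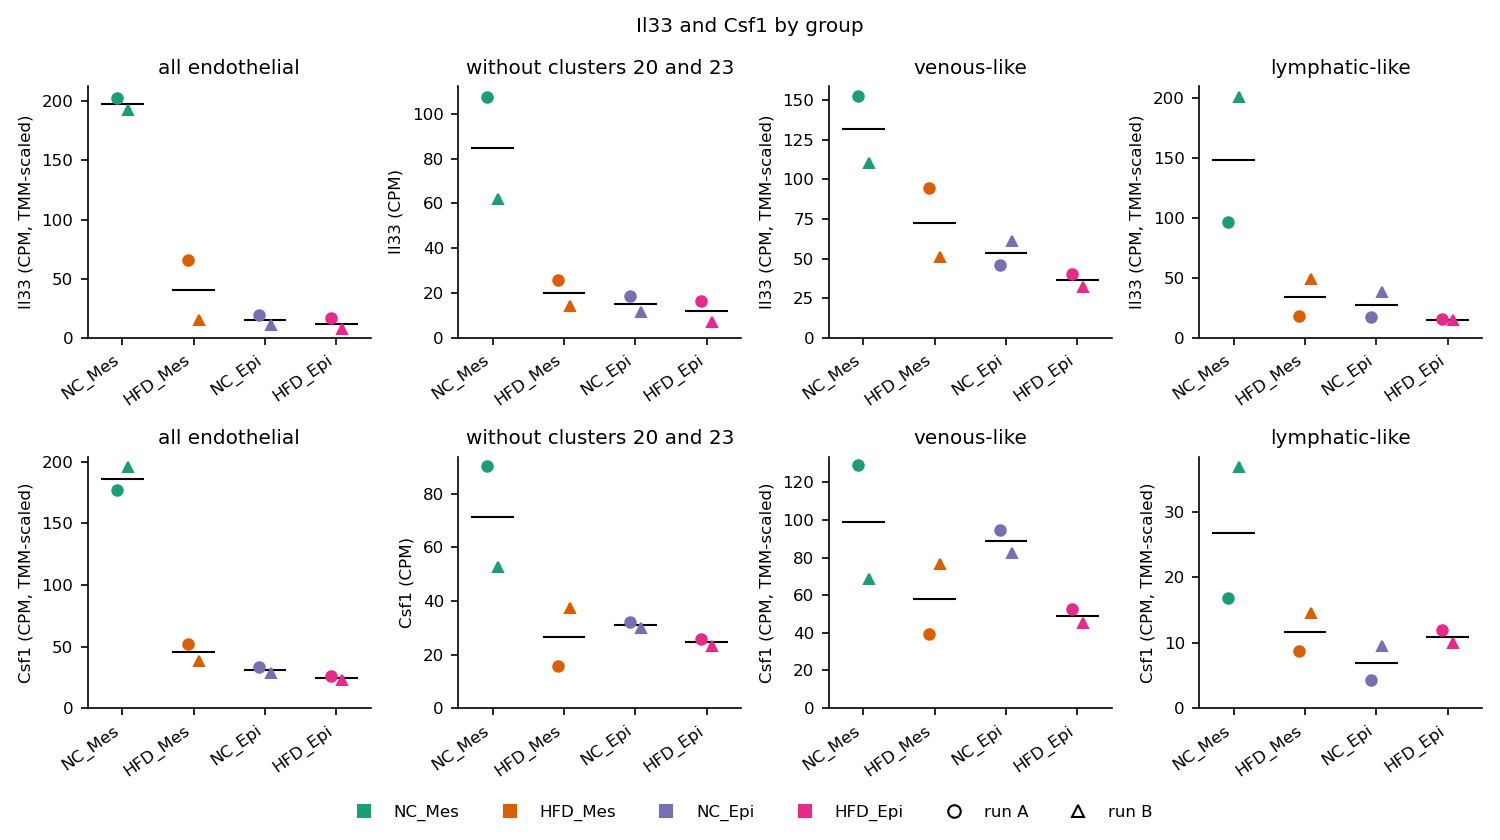
Il33 and Csf1 (CPM, y axis) in each library by group (x axis) for all endothelial cells, for all endothelial cells without clusters 20 and 23, and for venous-like and lymphatic-like cells. Chow mesentery is highest for Csf1 over all endothelial cells (177 and 196 CPM), and by less without the 2 clusters (90.2 and 52.5 CPM).

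With the replicate block, Il33 in lymphatic-like cells fell under high fat diet in the mesentery, and was higher in mesentery than in epididymal fat on chow; without the block neither difference was called. Il33 was at 96.8 and 201 CPM in mesentery on chow (75 and 246 UMIs), 18.2 and 49.1 in mesentery on high fat diet (23 and 44 UMIs), 17.1 and 38.03 in epididymal fat on chow and 15.4 and 14.4 in epididymal fat on high fat diet. The 2 chow mesentery libraries lay above all others, both high fat epididymal libraries lay below all others, and high fat mesentery and chow epididymal fat overlapped. The diet difference was -2.17 ± 0.58 on the log2 scale, 4.51-fold lower (edgeR unadjusted p = 0.00566; with the replicate block -2.18 ± 0.26, adjusted p = 0.000145), and within the runs it was -2.41 and -2.03. The tissue difference on chow was 2.44 ± 0.59, 5.44-fold higher in mesentery (unadjusted p = 0.00337, adjusted p = 0.872; with the block 2.43 ± 0.27, adjusted p = 6.23e-05), and within the runs 2.50 and 2.40. With the block 2 members and 1.86% of all 8810 genes were called for the diet, and 2 members and 1.85% for the tissue.

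Both differences were called in all 8 blocked fits that left out 1 library, with log2 values of -2.50 to -1.96 for the diet and 2.37 to 2.52 for the tissue. Cluster 5, the largest lymphatic-like cluster, gave -2.71 for the diet (edgeR with the replicate block, adjusted p = 4.91e-08) and 1.82 for the tissue on chow (adjusted p = 4.95e-05) when taken alone, and its Il33 level was 75.0 and 166 CPM in mesentery on chow against 14.5 to 49.8 CPM in the other 6 libraries. Cluster 12 was at 157 and 242 CPM in mesentery on chow and at 19.99 and 115 CPM on high fat diet. The 9 fibroblast markers, listed because fibroblast-like cells hold Il33, summed to 24.5 and 53.1 CPM in the lymphatic-like cells of mesentery on chow, 28.4 and 65.9 in the high fat mesentery, 44.8 and 7.10 in epididymal fat on chow, then 108 and 11.1 on high fat diet. Within run B they were thus higher in the chow mesentery than in epididymal fat on chow, as Il33 was, and within run A lower. Their part in the Il33 differences was not tested. In the chow mesentery libraries arterial-like cells held 0 and 4 Il33 UMIs (0 and 3.05 CPM) and capillary-like cells 3 and 9 (44.3 and 3.43 CPM), and the part of free RNA was not tested.

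Il6st and Csf1 moved in the same cells by less. Lymphatic-like Il6st was at 352 and 524 CPM in mesentery on chow, 218 and 288 in the high fat mesentery, 259 and 246 in epididymal fat on chow, then 247 and 331 on high fat diet. Its diet difference in the mesentery was -0.79 ± 0.32 (edgeR unadjusted p = 0.0399; with the replicate block -0.79 ± 0.20, adjusted p = 0.0496), and the call was lost under DESeq2 (adjusted p = 0.176) and in 6 of 8 fits without 1 library, those without any 1 mesentery library or either high fat epididymal one (highest adjusted p = 0.388). The tissue difference on chow was 0.80 ± 0.32 (unadjusted p = 0.0398; with the block adjusted p = 0.0642). Lymphatic-like Csf1 was at 16.8 and 36.8 CPM in mesentery on chow, 8.68 and 14.5 in the high fat mesentery, 4.26 and 9.51 in epididymal fat on chow, then 11.9 and 9.98 on high fat diet, from 4 to 45 UMIs per library. Its tissue difference on chow was 1.98 ± 0.59 (unadjusted p = 0.0102; with the block 1.96 ± 0.46, adjusted p = 0.0338), and the call was lost under DESeq2 (0.559), limma-voom (0.114), in the largest cluster alone (0.395) and without run B of mesentery on chow (0.475) or either chow epididymal library (0.187 and 0.227).

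In lymphatic-like cells Il7 was at 195 and 195 CPM in mesentery on chow, 129 and 161 in the high fat mesentery, 167 and 169 in epididymal fat on chow, then 142 and 174 on high fat diet, and 0 of its 13 diet or tissue tests in any population were called by edgeR, DESeq2 or limma-voom, with 1 unadjusted p under 0.05 in the blocked edgeR fits. Its level over all endothelial cells, 35.8 to 83.6 CPM in run A against 7.98 to 22.5 CPM in run B, moved with the summed lymphatic markers, which were 5774 to 17740 CPM in run A and 1915 to 3707 CPM in run B.

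In venous-like cells Il33 was at 153 and 110.2 CPM in mesentery on chow, 94.4 and 51.1 in the high fat mesentery, 46.1 and 61.3 in epididymal fat on chow, then 40.5 and 31.7 on high fat diet. Mesentery exceeded epididymal fat on chow in both runs, by 1.27 ± 0.39 on the log2 scale (edgeR unadjusted p = 0.0117; with the replicate block 1.14 ± 0.27, adjusted p = 0.0484, in a comparison in which 1.78% of all 10683 genes were called). On high fat diet the difference was 0.99 ± 0.40 (unadjusted p = 0.0409; with the block adjusted p = 0.612). Different clusters make up the class in the 2 tissues. Cluster 8 held 87.1% and 68.9% of the venous-like cells of mesentery on chow, 47.7% and 21.2% in the high fat mesentery and at most 5.31% in epididymal fat, where clusters 7 and 14 prevailed. Cluster 8 had 144 to 253 CPM of Il33 in each of its 6 libraries, from both tissues and both diets. Within the largest venous-like cluster, cluster 7, the tissue difference had the opposite sign (-0.70, and -0.69 with the block). The blocked call was also lost under DESeq2 (adjusted p = 0.106) and limma-voom (0.0835) and without any 1 of the 4 chow libraries (0.0753 to 0.569).

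In arterial-like cells Csf1 was at 88.4 and 54.9 CPM in mesentery on chow, 24.5 and 37.5 in the high fat mesentery, 46.0 and 34.0 in epididymal fat on chow, then 35.7 and 32.6 on high fat diet, from 5 to 72 UMIs. The diet difference in the mesentery was -1.05 ± 0.41 (edgeR unadjusted p = 0.0316; with the replicate block -0.83 ± 0.33, adjusted p = 0.643). In capillary-like cells Il33 differed with diet in the mesentery by -4.97 ± 2.23 (unadjusted p = 0.0475; with the block adjusted p = 0.665), but this rests on 3 and 9 UMIs on chow, then 0 and 2 on high fat diet. Il6st over all endothelial cells was at 929 and 587 CPM in mesentery on chow, 391 and 337 in the high fat mesentery and 324 to 517 in epididymal fat, with a diet difference of -1.06 ± 0.39 (unadjusted p = 0.0318; with the block adjusted p = 0.0802). Kitl, Tnfsf10 and Il15 had 0 called diet or tissue differences in any population under edgeR, DESeq2 or limma-voom, with or without the block. In the edgeR fit with the block 4 of 21 tests of Kitl, 1 of 21 of Tnfsf10 and 0 of 17 of Il15 had an unadjusted p under 0.05. Over all genes, between 211 of 10043 (capillary-like, tissue on high fat diet) and 1632 of 13089 (all endothelial cells, tissue on chow) did so per comparison. In the comparisons with the block in which no member was called, the share of all genes called was 0.00764% for the diet in epididymal fat, 0% for the interaction and 0% for the tissue under high fat feeding, all over the whole endothelium. It was 0.592%, 0.142%, 0.521% and 0.237% in arterial-like cells for the diet in mesentery, the diet in epididymal fat, the tissue on chow and the tissue on high fat diet. In the same order it was 0.757%, 1.21%, 0.229% and 0.229% in capillary-like cells. In venous-like cells it was 0.29% for the diet in mesentery, 0.0749% for the diet in epididymal fat and 0.206% for the tissue on high fat diet, and in lymphatic-like cells 0.0454% for the diet in epididymal fat and 0.193% for the tissue on high fat diet.

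In the fits without a block edgeR called 0 of the listed genes in any diet or tissue comparison, and the values that follow are with the block. Among the listed receptors Lifr, the partner of Il6st, was called with the replicate block in 3 comparisons in which Csf1 or Il33 was called too. Over all endothelial cells it was lower on high fat diet in mesentery (log2 -1.45 ± 0.15, SE; edgeR adjusted p = 0.0420) and higher in mesentery than in epididymal fat on chow (1.34 ± 0.15, adjusted p = 0.0242), where Il2rg was higher too (2.58 ± 0.41, adjusted p = 0.0489). Clusters 20 and 23, which held Il2rg at 469 ± 134 and 723 ± 75.1 CPM (SD, 3 libraries each), are part of these sums. Over all endothelial cells 14 of the 19 receptors were tested, so 1 was called lower for the diet and 2 higher for the tissue. In lymphatic-like cells 10 were tested: Osmr (-0.84 ± 0.21, adjusted p = 0.0464) and Lifr (-1.08 ± 0.26, adjusted p = 0.0398) were lower on high fat diet in mesentery, and Il11ra1 was lower in mesentery than in epididymal fat on chow (-0.88 ± 0.22, adjusted p = 0.0437). Of the 12 gp130 signalling genes 0 were called in any diet or tissue comparison under edgeR. With the block, 5 of 12 had an unadjusted p under 0.05 for the diet in mesentery over all endothelial cells. So did 1406 of all 13089 genes, and nothing particular to the list is read from this count. Stress genes moved in some of the same comparisons, with Hspa1b and Hspa1a higher in mesentery than in epididymal fat on chow in lymphatic-like cells (1.71 ± 0.40 and 2.60 ± 0.55) and Zfp36 and Hspa1b lower on high fat diet (-1.74 ± 0.32 and -1.92 ± 0.40). The part of this in the Il33 differences was not tested.

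Il6 separated the runs rather than the groups. In venous-like cells it was at 70.8 CPM in mesentery on chow, 10.5 in mesentery on high fat diet, 62.2 in epididymal fat on chow and 22.3 in epididymal fat on high fat diet in run A (194, 4, 27 and 11 UMIs). In run B the same groups were at 0, 1.66, 0 and 2.57 CPM (0, 4, 0 and 6 UMIs), although run B was sequenced more deeply. In lymphatic-like cells all 17 Il6 UMIs came from run A. In run A both chow groups lay above both high fat groups in venous-like cells, and in run B both lay below, so the order by diet was opposite between runs and 0 of 17 Il6 tests were called by edgeR, DESeq2 or limma-voom (1 unadjusted p under 0.05 in the blocked edgeR fits).

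The 13 dissociation stress genes separated the runs in the same direction as Il6. Their summed level in venous-like cells was 11769 to 20429 CPM in run A and 762 to 861 CPM in run B, and over all endothelial cells 11050 to 13519 against 832 to 916 CPM. Within run A, Il6 over all endothelial cells ranged more widely, from 4.43 to 44.5 CPM, and a relation within a run was not tested. Actinomycin D, which blocks transcription during digestion, is named in the labels of both runs. Csf3, the granulocyte colony-stimulating factor and one of the related ligands listed, was at 70.9 to 315 CPM in venous-like cells of run A and 0 to 0.330 CPM in run B. The runs also differed in the version of Cell Ranger and in depth, and the part of each in the Il6 level was not tested.

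**Figure D5:**
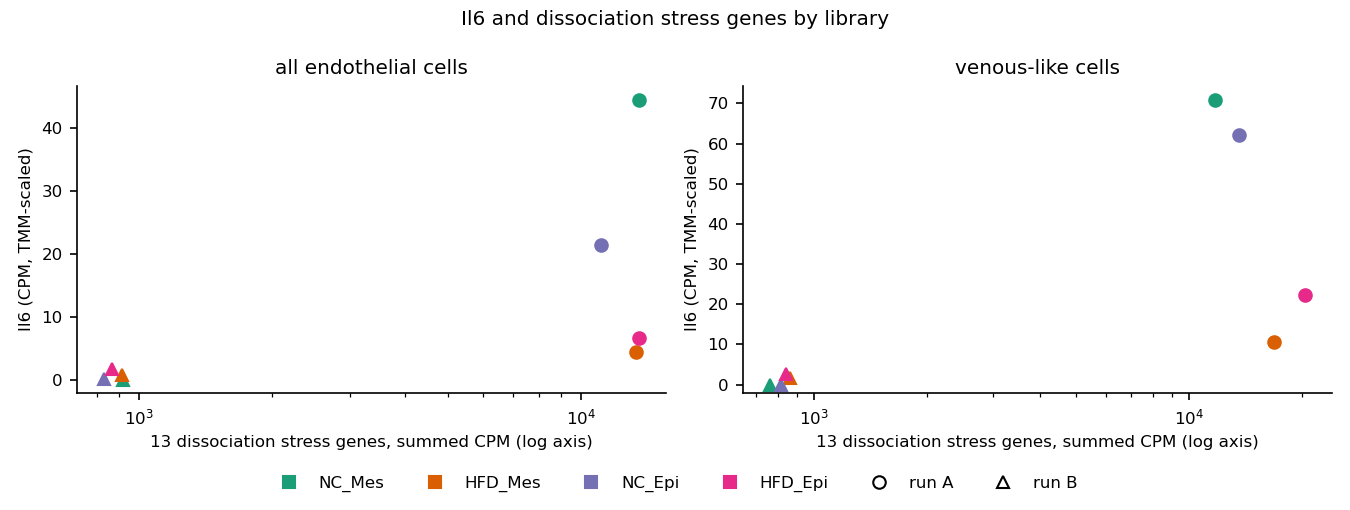
Il6 (CPM, y axis) against the summed level of 13 dissociation stress genes (CPM, log x axis) for each library, in all endothelial cells and in venous-like cells. Run A libraries lie at high stress gene levels with Il6 of 10.5 to 70.8 CPM in venous-like cells, and run B libraries at low stress gene levels with 0 to 2.57 CPM.

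Kitl and Tnfsf10 differed between the runs in the opposite direction. In arterial-like cells Kitl averaged 220.1 ± 51.5 CPM in run A and 533 ± 38.01 in run B, and Tnfsf10 51.7 ± 8.57 and 123 ± 9.96 (SD over 4 libraries each). The 4 libraries of run A lay below the 4 of run B for both genes. In venous-like cells Kitl averaged 193 ± 86.2 and 312 ± 46.5 CPM, with overlapping runs.

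Across the 32 sums of 4 endothelial classes in 8 libraries, genes were ranked by the similarity of their profile to each member. The measure was Pearson's r of log2 values, each taken relative to the mean of the 4 classes in its library. Level differences between libraries or runs that all classes share therefore did not enter r. The ranking covered 6421 genes and the 6 members with a mean of at least 20 CPM. The closest to Csf1 was Lifr (r = 0.92), to Il33 Lrg1 (0.95), to Il6st Eef1b2 (0.95), to Il7 Hjurp (0.95), to Kitl Ly6a (0.98) and to Tnfsf10 Tank (0.91). Reln, also among the 3 genes closest to Il7 (0.94), and Lrg1 are themselves class markers used for naming. Among member pairs, Il7 and Kitl were the most opposed (-0.93), Kitl and Tnfsf10 rose together (0.77) and Csf1 and Il33 were nearly unrelated across the named classes (0.03), although both peaked in clusters 20 and 23. The points share libraries, runs and class composition, so these values describe the profiles and carry no test.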

How the data were processed

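Cells sorted for YFP were profiled with 10x 3′ libraries, 2 per group. Per the file headers, the deposited matrices hold UMI counts made by the authors with Cell Ranger 3.0.2 (run A) and 5.0.0 (run B), with 31053 and 32285 genes. The submitters' processing notes name mm10 and Seurat 4.3.0. The members and gene lists were chosen with earlier results of these data known.

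Barcodes were kept from 500 UMIs and 300 genes upward, unless mitochondrial UMIs exceeded 10%, which left 23970 cells. Scrublet's own threshold marked only 40 cells (0.167%), so the 857 highest-scoring cells (3.58%), at 0.8% per 1000 cells, were removed as doublets. Clustering (scanpy 1.11.5, leidenalg 0.10.2, Python 3.11.15) used 2000 variable genes without the listed ones, 30 components, 20 neighbours and resolution 1.0, and clusters were named only where at least 3 fixed markers stood out; cluster 33, with neutrophil markers but higher macrophage markers, was left unnamed after seeing the data. Counts were summed per library and population of at least 10 cells and tested in R 4.3.3 with edgeR 4.0.16 (TMM, filterByExpr, quasi-likelihood test, adjusted p under 0.05). DESeq2 1.42.0 and limma 3.58.1 were alternatives. Group fits held 1 mean per group over all 8 libraries. The pairing by run comes from the labels, which call the runs independent repeats, and same-run libraries deviated together (lowest correlations 0.759, 0.580, 0.343, 0.690 and 0.705 for all endothelial, arterial-like, capillary-like, venous-like and lymphatic-like cells). The test was checked on simulated data. All members were named; test values are given where the unadjusted p was under 0.05 or the blocked fit called the gene. Promoters came from RefSeq and gene positions from the GENCODE annotation of GRCm38. Intervals are exact binomial at 95%.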

Additional observations from a re-analysis of the deposited data

Results flagged for a closer look

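Il6st in lymphatic-like cells moved in opposite directions between the tissues on the 2 diets, in both runs. On chow it was higher in mesentery than in epididymal fat, by 0.44 (run A) and 1.09 (run B) on the log2 scale, and on high fat diet it was lower in mesentery, by -0.18 and -0.20. This separation by sign is not itself a test. The interaction of diet and tissue in these cells was -0.99 ± 0.46 (SE; edgeR unadjusted p = 0.0630, adjusted p = 1.00), and with the replicate block -0.96 ± 0.29 (adjusted p = 0.440), so it was not called.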

How the results depend on the processing

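With 2 libraries per group, 148 member tests gave 0 calls without a block, and calls arose mainly with the replicate block. For the diet in mesentery over all endothelial cells the members called went from 0 to 1 with DESeq2 and 1 with the block, and with the block to 3 (DESeq2), 1 (limma-voom), 1 (4 named classes; Il33, not Csf1), 1 (without clusters 20 and 23; again Il33), 0 (mixed clusters added) and 0 to 3 without single libraries. For the tissue on chow they were 2 with DESeq2 and 2 with the block, then 3, 2, 1, 1, 1 and 0 to 3 under the same settings. For the interaction the blocked count was 0, 1 with DESeq2 and 0 to 2 without single libraries. In venous-like cells dropping the filter on low counts gave 1 for the diet in mesentery; for the tissue on chow the block gave 1, and 0 with DESeq2, limma-voom, the largest cluster or resolution 2.0 (0 to 1 without single libraries). In lymphatic-like cells no filter gave 1 for the diet in mesentery, the block 2, DESeq2 1, limma-voom 2, the largest cluster 2, resolution 2.0 1, and 1 to 2 without single libraries; the tissue on chow gave 1, 2, 1, 2, 2, 2 and 1 to 2. In run A alone 3 members were called in arterial-like and 2 in capillary-like cells. The direction reversed for Il33 in venous-like cells between tissues on chow within the largest cluster (-0.70, block -0.69), for Tnfsf10 in arterial-like cells (0.050 at a limit of 5% mitochondrial counts, 0.022 in run B alone), and for Csf1 (0.16) and Il33 (0.38) in capillary-like cells in run A alone. Each member difference was counted once per alternative setting, including fits without 1 library, and some entered both with and without the block. Of the other results counted this way, 865 kept direction and side of the threshold, 40 gained and 52 lost a call. The cause was not tested. Counts over all genes moved as well, with the blocked fits without 1 library calling 0 to 673 genes for the diet in mesentery and 0 to 910 for the tissue on chow over all endothelial cells. The alternatives on mixed clusters, clusters 20 and 23, named classes, largest clusters and resolution 2.0 with the block were chosen after seeing the data. Il33 and Il7 in capillary-like and arterial-like cells and Il15 in lymphatic-like cells rested on few UMIs in both runs. Il15 in lymphatic-like cells had 16 UMIs in run A and 15 in run B, and Il33 in arterial-like cells had 0 and 9.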
